A study of Homo sapiens with 12 samples.

Results

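A small set of genes for surface and secreted proteins of cell adhesion and matrix breakdown was followed here at the transcript level in activated hepatic stellate cells. They are CD44 (identifier NM_000610.3), CDH1 (NM_004360.2), CDH2 (NM_001792.3) and PLAU (NM_002658.2), taken by name as 4 of the 199 genes of a stem cell panel, and each was read in all 12 samples. The cells were LX-2, an established human line of activated hepatic stellate cells, and received either a miR-25 mimic or a control duplex of Caenorhabditis elegans sequence at a dose of 10 pmol/ml, and each hybridisation used 50 ng of RNA. Each of the 4 groups, control and miR-25 at 24 h and at 48 h after transfection, held 3 samples. Samples of a time point with the same replicate letter and transfection efficiency in the labels were treated as a pair. Such a pair, numbered in the order of the letters, is called a transfection below, although each arm received its own duplex. The nCounter assay counts single molecules of a barcoded probe bound to each transcript and uses no amplification step.

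What limits these groups as a model is that both arms are 1 cell line and received lipid and a small RNA duplex, with no untransfected sample among the 12. The share of cells that took up a labelled control RNA on the same plate ranged from 0.42 to 0.81 over the 6 transfections, so every miR-25 sample mixes transfected and other cells. The miR-25 level given in the labels was 62.34 to 350.13 times that of the control at 24 h and 347.45 to 681.22 times at 48 h. The labelled cell type could be checked only in part, since the activation markers ACTA2, VIM and PDGFRB are not on the panel. The activation marker that is, COL1A1, a fibrillar collagen, had 795 to 4644 counts and was above background in 12 of 12 samples. PPARG, a marker of quiescent stellate cells, was above background in 2 of 12. Of 4 epithelial markers, FOXA2 was above background in 0 of 12 samples, CDH1 in 1, KRT15 in 5 and GJB1 in 10, each at no more than 20 counts.

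Total counts over the genes were 321243 to 409581 at 24 h and 107377 to 200821 at 48 h, so the mean total at 48 h was 0.424 of that at 24 h. The 6 positive control probes, which carry a fixed amount of added RNA, fell less, to 0.663. Each time point had its own transfections, so that time, depth and transfection cannot be told apart. Counts are given below as read, or per 100,000 gene counts of the sample where samples are set side by side. Levels are those of RNA from whole wells, in which fewer cells with a transcript and less of it in each cell cannot be told apart.

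Cadherins are calcium-dependent adhesion proteins that join like to like across cell borders and are tied to actin through the catenins. E-cadherin, encoded by CDH1, is the form of epithelia and has been used as a marker of quiescent stellate cells, whereas N-cadherin, encoded by CDH2, is the form of mesenchymal cells, and an exchange of the first for the second accompanies the loss of epithelial character. CD44 is the main receptor for hyaluronan, a sugar polymer of the matrix. PLAU encodes urokinase, a secreted serine protease that turns plasminogen into plasmin and so starts the breakdown of fibrin and other matrix. CD44 and PLAU are also counted among the genes that respond to Wnt and β-catenin. A miRNA lowers its targets by pairing through its seed, bases 2 to 8 from its 5′ end.

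The sequences behind the measurements are shown first, because each count stands for 1 short stretch of the transcript and because the cadherins are related genes that a probe could confuse. The mature human miR-25-3p, from RefSeq (GRCh38.p14, chr7:100093571-100093592, minus strand), has its seed in capitals.
miR-25-3p: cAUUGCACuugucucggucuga
The stretches of transcript that the panel's probes bind are given 5′ to 3′ in lower case, as the list of the panel's probes has them, with no part singled out.
CD44: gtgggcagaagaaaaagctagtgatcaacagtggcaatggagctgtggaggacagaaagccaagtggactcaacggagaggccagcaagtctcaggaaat
CDH1: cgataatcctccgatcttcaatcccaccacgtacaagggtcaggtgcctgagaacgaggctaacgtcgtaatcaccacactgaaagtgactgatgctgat
CDH2: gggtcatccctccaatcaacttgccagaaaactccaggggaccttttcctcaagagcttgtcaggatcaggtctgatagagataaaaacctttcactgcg
PLAU: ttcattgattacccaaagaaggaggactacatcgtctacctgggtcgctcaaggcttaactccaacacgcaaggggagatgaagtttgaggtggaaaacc
Each window is 100 bases long, with a GC content of 51% for CD44, 50% for CDH1 and 48% for CDH2 and PLAU, against a median of 51% over the 193 windows of the panel. In their best end-to-end alignment the CDH1 and CDH2 windows shared 51 of 100 bases, so the stretches that told the cadherins apart were clearly different. The complement of the seed, GTGCAAT, searched on both strands, was in 0 of these 4 windows and in 1 of all 193 (0.518%). The rest of each transcript was not searched, and no genome position is given for the windows because the counts have no genome build.

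Of the 4 transcripts, 3 were abundant and 1 was at background. By mean scaled count CD44 was 13th and CDH2 14th of the 199 genes, PLAU was 45th and CDH1 178th. These ranks compare counts of different probes, which need not capture equally well. CD44, CDH2 and PLAU were above background, set in each sample at the mean of its 8 negative control probes plus 2 SD, in 12 of 12 samples.

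The CDH1 probe read almost nothing. Its raw counts were 6, 11 and 4 in the control samples at 24 h and 9, 5 and 2 in the miR-25 samples of the same transfections. At 48 h they were 2, 2 and 3 in the control and 1, 1 and 4 in the miR-25 samples. The one count over its sample's background level was 11 in control replicate 2 at 24 h, where that level was 10.4. With a mean of 4.17 counts CDH1 was below the mean of 20 counts required for testing. Without that filter its log2 fold change for miR-25 against control was -0.50 ± 0.43 (SE, adjusted p = 0.964, edgeR) at 24 h and -0.44 ± 0.72 (adjusted p = 0.786) at 48 h. These are differences of a few counts that cannot be told from background.

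CDH2 was abundant in the same samples. Its counts were 7246, 5969 and 5810 in the control and 7075, 7021 and 6680 in the miR-25 samples at 24 h, and 1725, 1502 and 2139 in the control and 2208, 1680 and 2442 in the miR-25 samples at 48 h. In every sample CDH2 stood above the CDH1 probe, and the lowest CDH2 count was still far over any CDH1 count. Where CDH1 was not above background, only a lower bound can be set for the ratio of CDH2 to CDH1 counts. CDH2 was 213 to 635 times the background level of its own sample. In control replicate 2 at 24 h, where CDH1 was above that level, the ratio of counts was 543. The probes need not capture equally well, so these values bound counts and not amounts of transcript.

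Taken at face value, the ratio of CDH2 to CDH1 counts was 543 to 3340, a range that CDH1 counts of 1 to 11 set. Within pairs the log2 of this ratio was higher with miR-25 by 0.65 ± 1.10 (SD, n = 3 pairs) at 24 h and by 0.76 ± 0.86 at 48 h. It was higher in 4 of 6 pairs, and an exact two-sided sign-flip permutation test over the 6 pairs gave p = 0.125, where the smallest possible is 0.031. From 24 h to 48 h it moved by -0.35 in the control samples (exact permutation test, 3 against 3, p = 0.4) and by -0.23 in the miR-25 samples (p = 0.8). With CDH1 set to the background level of its sample wherever it was lower, so that the value follows CDH2 over background, the change with miR-25 was -0.13 at 24 h, 0.27 at 48 h and 0.07 over both (exact permutation p = 0.75, 0.25 and 0.625), and that with time was -1.25 in the control and -0.86 in the miR-25 samples (p = 0.1 each, the smallest possible). Because CDH1 was not above background in 11 of 12 samples, these values describe the counts and cannot show whether the cadherin balance changed or stayed.

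**Figure D1:**
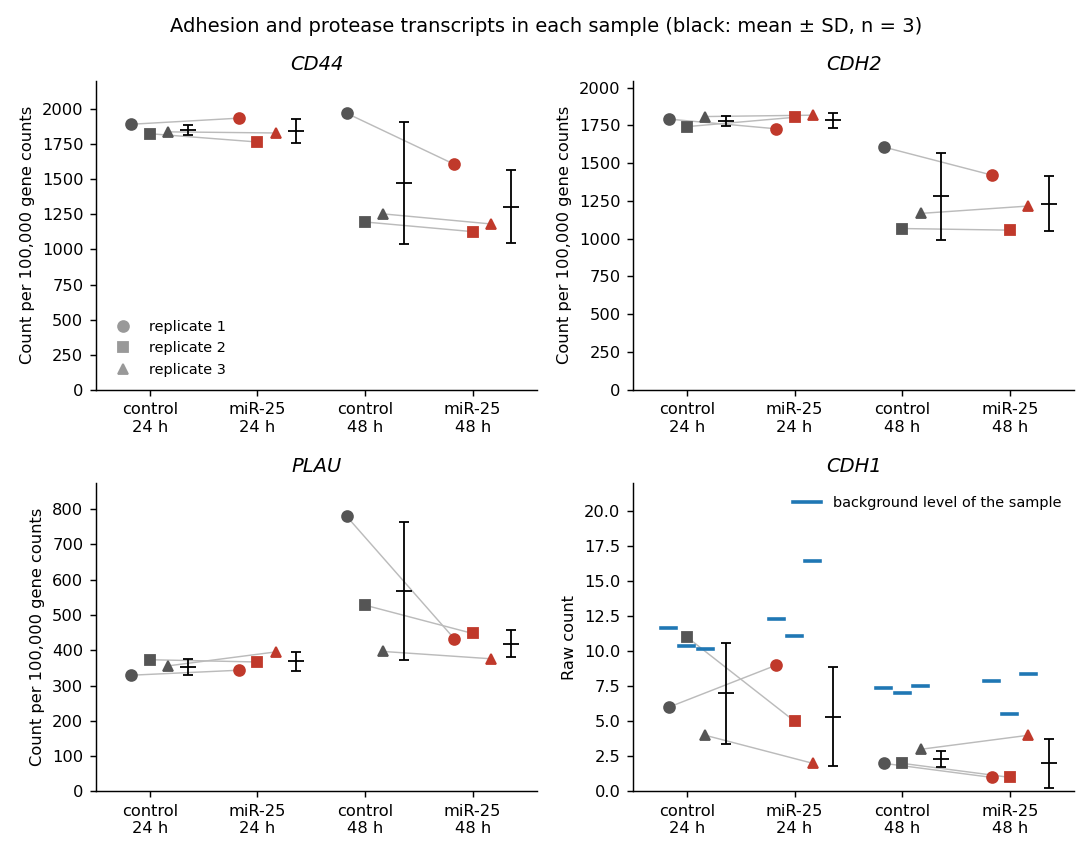
Counts of each transcript in the 12 samples, per 100,000 gene counts of the sample for CD44, CDH2 and PLAU and as raw counts for CDH1, with markers for the replicate, grey lines joining the samples of 1 transfection and the mean ± SD (n = 3) in black. Blue bars in the CDH1 panel are each sample's background level, which 1 of the 12 CDH1 counts exceeded. At 48 h the samples of replicate 1 lie above the others for CD44 and CDH2, and the control of that transfection has the highest PLAU value, 779.

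At 24 h the 3 abundant transcripts were level across all samples. Per 100,000 gene counts, CD44 was at 1892, 1825 and 1838 in the control and 1936, 1766 and 1830 in the miR-25 samples. CDH2 was at 1792, 1742 and 1809 in the control and 1727, 1804 and 1818 in the miR-25 samples. PLAU was at 329, 373 and 356 in the control and 344, 367 and 395 in the miR-25 samples. The groups overlapped for each gene, and the spread of CD44 within the control samples was 35.7 (SD, n = 3) on a mean of 1852.

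At 48 h the samples of transfection 1 stood apart. CD44 was at 1971, 1196 and 1253 in the control samples and 1607, 1127 and 1182 in the miR-25 samples per 100,000 gene counts. CDH2 was at 1606, 1067 and 1167 in the control and 1421, 1056 and 1216 in the miR-25 samples. In both arms replicate 1 was the highest for CD44 and CDH2. The control of transfection 1 also had the smallest total of all samples, 107377. COL1A1 went the other way in that transfection, at 740 per 100,000 in its control and 540 in its miR-25 sample against 1448 to 1857 in the other samples at 48 h.

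PLAU at 48 h was at 779, 528 and 397 per 100,000 gene counts in the control samples and 433, 448 and 376 in the miR-25 samples. The SD over the controls was thus 195 on a mean of 568, against 22.1 on 353 at 24 h. All 3 control values at 48 h were above every control value at 24 h, while in the miR-25 samples the time points overlapped.

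The 48 h samples were then set against those at 24 h, in each arm by itself. In the control samples CDH2 was lower in every 48 h sample and PLAU higher in every 48 h sample. Of the 136 genes tested, 14% were lower in that way and 21.3% were higher, so such a split was common on the panel. By edgeR the log2 change was -0.48 ± 0.16 (SE) for CDH2, -0.33 ± 0.19 for CD44 and 0.68 ± 0.23 for PLAU, with adjusted p of 0.124, 0.271 and 0.124. Of the 3, 0 passed the threshold of 0.05, where 7 of 136 genes did (5.15%), and 2 of the 3, CDH2 and PLAU, had an unadjusted p under 0.05, where 42 genes did (30.9%). DESeq2 called 22 genes here and limma on log2 values 6.

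The size of each change depended on the 48 h samples. Without control replicate 1 at 48 h, CD44 was lower by 0.60 on the log2 scale (adjusted p = 1.3e-04), CDH2 was lower by 0.67 (adjusted p = 1.3e-04) and PLAU was higher by 0.39 (adjusted p = 0.0347), and 54 of 136 genes were called. With that sample left out, the change of PLAU passed the threshold but was smaller. Without control replicate 3 at 48 h it was 0.89 (adjusted p = 0.0451). CD44 was at -0.20 (adjusted p = 0.543) without control replicate 2 and at -0.23 (adjusted p = 0.509) without control replicate 3 at 48 h.

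In the miR-25 samples CD44 and CDH2 were lower in every 48 h sample, a split that 22.8% of the 136 genes showed in this direction. CDH2 fell by 0.53 ± 0.12 (SE) on the log2 scale, with an adjusted p of 0.0499 that is only just past the threshold, and 10 of 136 genes passed (7.35%). The call on CDH2 was lost with limma (adjusted p = 0.0718), with no filter on low counts (0.0595) and when any 1 sample other than replicate 1 at 48 h was left out (0.112 to 0.231). The values were -0.50 ± 0.15 (adjusted p = 0.0909) for CD44 and 0.18 ± 0.11 (adjusted p = 0.307) for PLAU. Both CD44 and CDH2 had an unadjusted p under 0.05, where 31.6% of the genes did. CD44 was past the threshold with DESeq2 (adjusted p = 0.0426) and with reference genes as the scale (0.0383). Without miR-25 replicate 1 at 48 h, CD44 was at -0.68 (adjusted p = 8.4e-05) and CDH2 at -0.65 (adjusted p = 1.7e-04), and 62 genes were called.

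The direction for PLAU hung on how the samples were scaled. With the positive control probes in place of the gene total, the median of all 136 genes moved to -0.61 in the control and -0.44 in the miR-25 samples, from 0.13 and 0.09. On that scale CD44 was at -1.13 and CDH2 at -1.25 in the control samples (adjusted p = 0.0214 and 0.0128) and at -1.07 and -1.09 in the miR-25 samples (adjusted p = 0.00582 for both). PLAU then went from 0.68 to -0.14 in the control (adjusted p = 0.711) and from 0.18 to -0.37 in the miR-25 samples (adjusted p = 0.0842). Of the genes called in the control samples 4 of 7 were higher at 48 h by gene total and 0 of 27 by positive probes, and in the miR-25 samples 4 of 10 and 1 of 49. Relative to the median of all genes PLAU was at 0.55 in the control samples by gene total and at 0.47 by positive probes, so its place among the genes was kept while its sign was not.

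**Figure D2:**
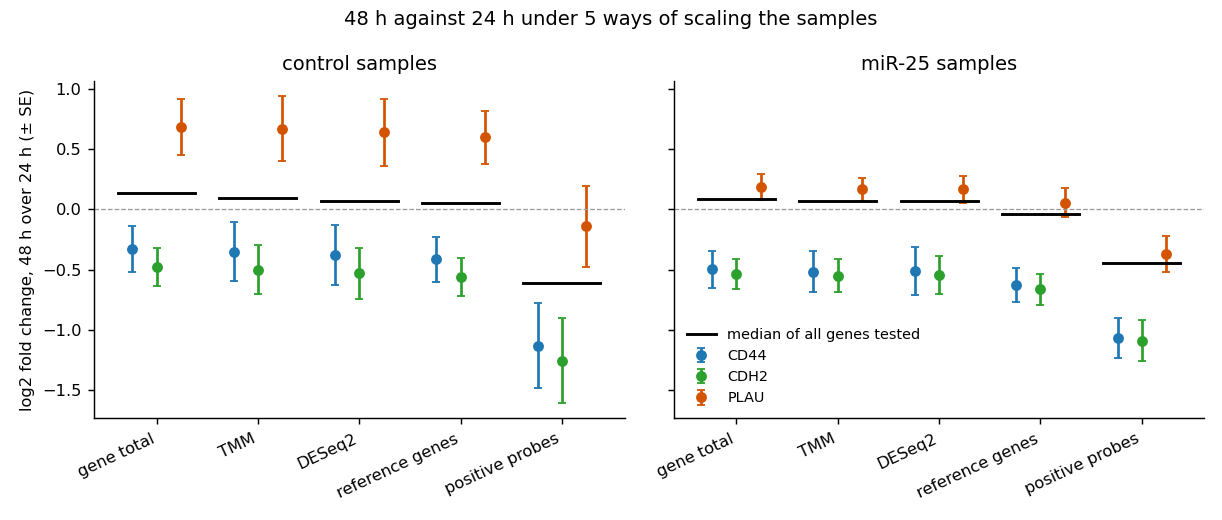
Log2 fold change of CD44, CDH2 and PLAU at 48 h over 24 h (± SE) in the control samples (left) and the miR-25 samples (right), with the samples scaled in 5 ways, and the median of all 136 genes tested as a black bar. CD44 and CDH2 lie below the median and PLAU above it under each scaling, while the whole set moves down with the positive control probes.

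Ratios of counts within a sample need no scaling, and they were added after the counts had been seen. PLAU counts were 1332, 1279 and 1143 in the control and 1407, 1428 and 1453 in the miR-25 samples at 24 h, and 837, 743 and 727 in the control and 672, 712 and 755 in the miR-25 samples at 48 h. CD44 counts were 7653, 6254 and 5905 in the control and 7929, 6874 and 6726 in the miR-25 samples at 24 h, and 2116, 1683 and 2297 in the control and 2496, 1792 and 2373 in the miR-25 samples at 48 h. Raw PLAU counts thus dropped much less between the time points than those of CD44.

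The ratio of PLAU to CD44 counts was 0.174 to 0.216 over the 6 samples at 24 h and 0.269 to 0.441 over the 6 samples at 48 h, without overlap. Over all pairs of the 136 genes, 24.3% had ratios that did not overlap in this way. In the control samples the ratio went from 0.190 to 0.381 (geometric means), a shift of 1.00 on the log2 scale, and 12.1% of the gene pairs shifted by as much or more in either direction. In the miR-25 samples it went from 0.200 to 0.324, a shift of 0.70. Both exact permutation tests gave p = 0.1, the smallest that 3 samples against 3 allow, and leaving out any 1 sample kept the shift at 0.89 to 1.14 in the control and 0.55 to 0.83 in the miR-25 samples.

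Against N-cadherin the protease moved alike. This is not a separate result, since the PLAU counts are the same and CD44 and CDH2 kept nearly the same proportion. Of all gene pairs, 24.3% did not overlap between the time points, and 8.93% shifted as much or more in the control samples. The ratio of PLAU to CDH2 counts was 0.184 to 0.218 at 24 h and 0.304 to 0.495 at 48 h, with shifts of 1.13 in the control and 0.73 in the miR-25 samples (exact permutation p = 0.1 in each).

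CD44 and CDH2 kept nearly the same proportion throughout. Their count ratio lay between 0.972 and 1.23 in all 12 samples, so the highest was 1.26 times the lowest, and 1.06% of the gene pairs had a range as narrow. Those pairs include genes with far fewer counts, whose ratios vary more by counting alone, so the share partly follows abundance. In the control samples the ratio was 1.02 to 1.06 at 24 h and 1.07 to 1.23 at 48 h, a log2 shift of 0.13 (exact permutation p = 0.1), and in the miR-25 samples the shift was 0.03 (p = 0.8).

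**Figure D3:**
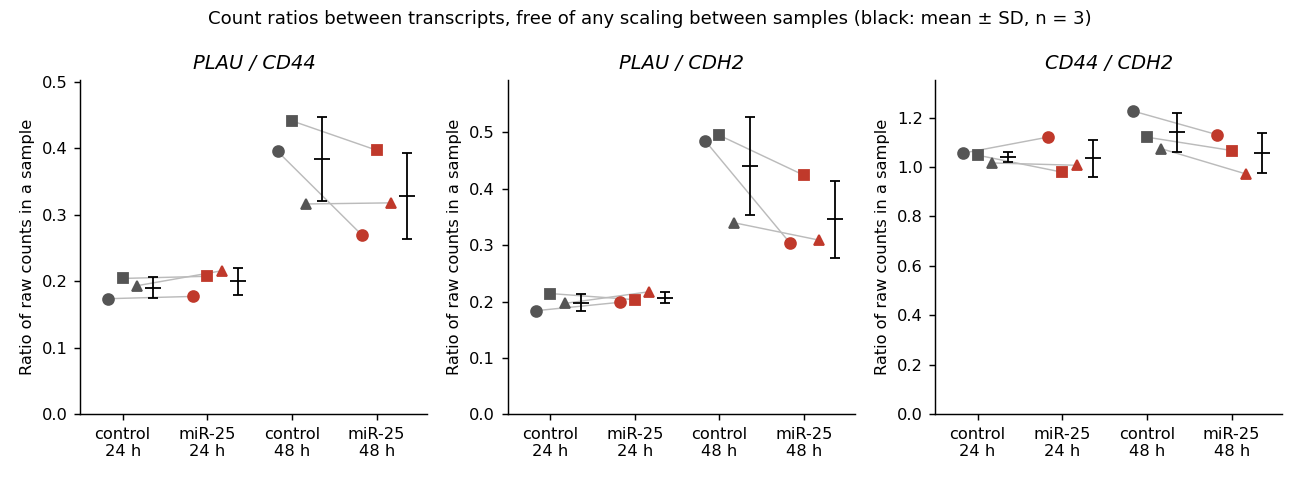
Ratio of raw counts of PLAU to CD44, PLAU to CDH2 and CD44 to CDH2 within each of the 12 samples, with grey lines joining the samples of 1 transfection and mean ± SD (n = 3) in black. Both ratios with PLAU are higher in every 48 h sample than in any 24 h sample, whereas CD44 to CDH2 stays between 0.972 and 1.23. Of all pairs of genes tested, 24.3% had ratios without overlap between 24 h and 48 h.

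The effect of the mimic was read within transfections, as the ratio of miR-25 to control per 100,000 gene counts. CD44, CDH2 and PLAU are among the genes that the study listed as lowered by miR-25 on these same samples, so a lower value here is not independent evidence of that direction. The study multiplied the ratios of lowered genes by the transfection efficiency and used a fold cut-off. No such correction was made here, so the values are not alike. At 24 h the uncorrected ratios were 1.02, 0.968 and 0.996 for CD44, 0.964, 1.04 and 1.01 for CDH2 and 1.04, 0.983 and 1.11 for PLAU. The pairs went both ways for each gene. The edgeR fit gave log2 changes of -0.01 ± 0.041 (SE, adjusted p = 0.973) for CD44, 0.00 ± 0.042 (adjusted p = 0.983) for CDH2 and 0.06 ± 0.091 (adjusted p = 0.944) for PLAU. None of the 136 genes was called by edgeR (0%), DESeq2 or limma at 24 h, and 9 (6.62%) had an unadjusted p under 0.05 by edgeR.

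At 48 h CD44 and PLAU were lower in all 3 pairs, which 18.4% of the 136 genes were. For CD44 the ratios were 0.815, 0.942 and 0.943 and for PLAU 0.555, 0.848 and 0.948. The 95% counting interval lay below 1 in 2 of 3 pairs for CD44, the first and the third, and in 2 of 3 for PLAU, the first and the second. CDH2, at 0.885, 0.990 and 1.04, was lower in 2 pairs and higher in 1, with the interval below 1 in the first. At 24 h the interval of 1 pair lay below a ratio of 1 and that of another above it for CDH2, and 1 pair lay above it for PLAU. Such intervals cover counting error only.

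The fit across all samples, with the pair as a block, put CD44 at -0.16 ± 0.046 (SE, adjusted p = 0.120), PLAU at -0.39 ± 0.10 (adjusted p = 0.120) and CDH2 at -0.04 ± 0.047 (adjusted p = 0.722) on the log2 scale at 48 h. Its SE rests on a spread shared by both time points and does not measure that of the 48 h pairs. The PLAU pair ratios had an SD of 0.20 at 48 h and 0.064 at 24 h (n = 3 pairs each). Of the 3 transcripts, 2 had an unadjusted p under 0.05, where 12.5% of the 136 genes did, and 0 passed after adjustment, where 1 gene did (0.735%). That gene, named after its values were seen, was the growth factor FGF1, higher with miR-25 by 0.38 on the log2 scale.

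Transfection 1 set the size for PLAU. Without it the log2 change was -0.16 (adjusted p = 0.321) for PLAU, -0.09 (adjusted p = 0.617) for CD44 and 0.03 (adjusted p = 0.856) for CDH2. PLAU was called without transfection 3 (-0.55, adjusted p = 0.0260), with the 48 h samples fitted alone (-0.39, adjusted p = 2.2e-05) and with no filter on low counts (-0.39, adjusted p = 0.0184). The SE with the 48 h samples alone, 0.072, draws on the spread of the other genes and does not measure that of the PLAU pairs. Transfection 1 had the lowest uptake at 48 h, 0.42, and the lowest miR-25 level, 347.45, and the part of either in the result was not tested.

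The sign of CD44 at 48 h also turned with the scaling. By the positive control probes the pair ratios were 1.12, 1.23 and 1.01 for CD44, 1.22, 1.29 and 1.12 for CDH2 and 0.763, 1.11 and 1.02 for PLAU, with the median of all genes at 0.30 on the log2 scale instead of -0.01. Relative to that median CD44 was at -0.14 by either scaling and PLAU at -0.38 by gene total and -0.37 by positive probes. With no block for the pair, PLAU was at -0.44 and CD44 at -0.17 with adjusted p of 0.991 for both.

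**Figure D4:**
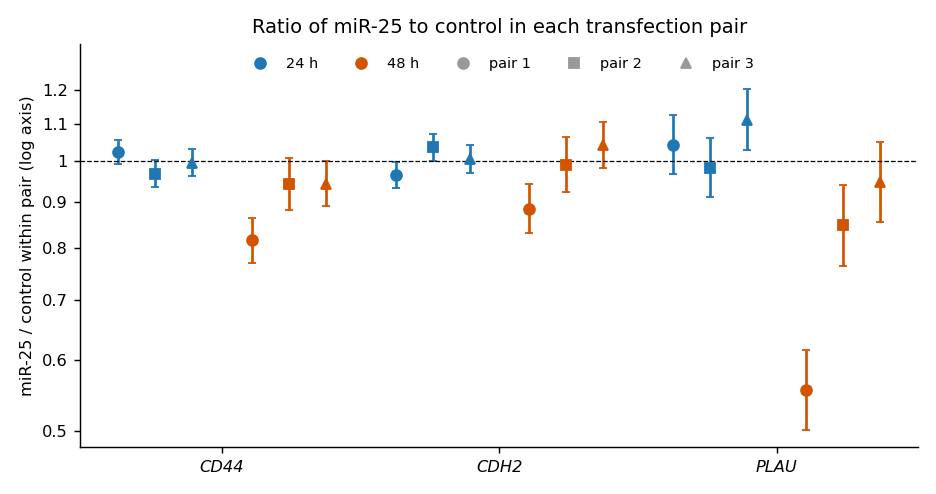
Ratio of miR-25 to control (per 100,000 gene counts, log axis) for CD44, CDH2 and PLAU in the 3 transfection pairs at 24 h and the 3 at 48 h, with 95% counting intervals. The 24 h ratios lie around 1, between 0.964 and 1.11, and the lowest value is that of PLAU in pair 1 at 48 h, 0.555.

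Ratios within a sample were compared within pairs as well. At 48 h the ratio of CD44 to CDH2 was lower with miR-25 in 3 of 3 pairs, by 0.11 ± 0.037 on the log2 scale (SD, n = 3), and that of PLAU to CDH2 in 3 of 3, by 0.34 ± 0.29, each at the smallest exact permutation p that 3 pairs allow, 0.25. PLAU to CD44 was lower in 2 of 3 pairs, with a mean of -0.23 ± 0.29 (exact permutation p = 0.5). At 24 h PLAU to CD44 was higher with miR-25 in 3 of 3 pairs, by 0.07 ± 0.077 (exact permutation p = 0.25). Of all pairs of the 136 genes, 26.2% had a ratio that went the same way in all 3 transfections at 24 h and 37% at 48 h.

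Whether the mimic acted differently at the time points was tested directly. The change at 48 h minus that at 24 h was -0.45 ± 0.14 (SE) for PLAU, -0.15 ± 0.061 for CD44 and -0.04 ± 0.063 for CDH2 on the log2 scale, with adjusted p of 0.371, 0.631 and 0.899. For PLAU and CD44 the unadjusted p was 0.00546 and 0.0285, as it was under 0.05 for 5.88% of the 136 genes. None of the 136 genes passed by edgeR (0%) and 1 did by DESeq2. Without transfection 1 at 48 h the difference for PLAU was -0.22. Over both time points together the changes were -0.07 for CD44 (adjusted p = 0.311), -0.02 for CDH2 (0.863) and -0.14 for PLAU (0.440), with 0% of genes called and 15.4% at an unadjusted p under 0.05. Without transfection 1 at 48 h they were -0.03 for CD44 and -0.0081 for PLAU.

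Other genes of the same functions were taken from lists of panel genes. Of the cadherin and junction partners, CTNNA1 and CTNNB1, the α- and β-catenin that link cadherins to actin, were tested, and NCAM1 and GJB1 were too low. None of the 2 tested was called in any comparison, beside shares of 0% to 7.35% over all genes. Their log2 changes at 48 h against 24 h were -0.13 ± 0.090 (SE) and -0.10 ± 0.081 in the control samples, closer to 0 than that of CDH2, and at 48 h with miR-25 they were -0.02 each.

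Among the proteases and matrix genes 5 of 6 were tested, and they did not move as 1 group with time. FURIN, a protease that matures other proteins, rose by 1.11 ± 0.11 (SE, adjusted p = 0.00277) in the control and by 1.08 ± 0.12 (adjusted p = 0.00664) in the miR-25 samples on the log2 scale. BMP1, which trims procollagen, rose by 0.48 ± 0.099 (adjusted p = 0.0333) in the control samples and was at 0.35 (adjusted p = 0.157) in the miR-25 samples. MME, the membrane peptidase neprilysin, at the same margin as CDH2, fell by 0.63 ± 0.15 (adjusted p = 0.0499) in the miR-25 samples and was at -0.46 (adjusted p = 0.128) in the control samples. ADAM17, the sheddase, and COL1A1 passed in neither. These changes are by gene total. With the positive control probes as scale, 0 of the 27 genes called in the control samples were higher at 48 h. FURIN and BMP1 were thus not called as higher in the control samples on that scale. The median of the 5 was 0.34 in the control samples, beside 0.13 for all 136 genes, and 0.23 in the miR-25 samples, beside 0.09.

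With the mimic 0 of these 5 were called at 24 h or at 48 h, beside 0% and 0.735% of the 136 genes. At 48 h 4 of 5 were below 0, with a median of -0.12 beside -0.01 for all genes. ADAM17 was at -0.12 ± 0.080 (SE, adjusted p = 0.540), MME at -0.15 ± 0.070 (adjusted p = 0.385) and COL1A1 at -0.12 ± 0.070 (adjusted p = 0.532).

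Of the 6 other genes known to respond to Wnt and β-catenin, 0 were called in each comparison, beside shares of 0% to 7.35% over all genes. At 24 h 5 of the 6 were above 0 with miR-25, with a median of 0.12 beside 0.03 for all genes, and CCND1 (cyclin D1), FOSL1, MYC and PPARD had an unadjusted p under 0.05, which is 4 of 6 beside 6.62% of the 136 genes. At 48 h 3 were above and 3 below 0, with a median of -0.01 for them and for all genes. TCF7, a transcription factor of the Wnt pathway, was then at -0.71 ± 0.26 (SE, adjusted p = 0.25) and FOSL1 at 0.12 ± 0.048 (adjusted p = 0.310), and these 2 of 6 had an unadjusted p under 0.05, beside 12.5% of all genes.

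Last, the genes whose level moved most like each transcript from sample to sample were found, by Pearson's r of log2 scaled counts over the 12 samples after each time point's mean had been taken off. For CD44 they were PRKACA (0.964), PGK1 (0.956) and ZIC2 (0.938), for CDH2 they were FGF2 (0.980), CD44 (0.932) and ZIC2 (0.930), and for PLAU they were MME (0.831), FZD3 (0.765) and JUN (0.758). Several of these likenesses were weaker over the 10 samples that remain without transfection 1 at 48 h, a check added after the values were seen: r was 0.175 for CD44 with PRKACA, 0.597 with PGK1 and 0.258 with ZIC2, and 0.201 for CD44 with CDH2. It was 0.861 for CDH2 with FGF2 and 0.497 with ZIC2. For PLAU it was 0.929 with MME, 0.852 with FZD3 and 0.587 with JUN. Over the 24 h samples alone, r for CD44 was -0.545 with CDH2, 0.345 with PRKACA, 0.879 with PGK1 and -0.254 with ZIC2. For CDH2 at 24 h it was 0.378 with FGF2 and 0.218 with ZIC2. For PLAU at 24 h it was 0.757 with MME, 0.773 with FZD3 and -0.110 with JUN. The samples share pairs and total counts, so these values describe the libraries.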

How the data were processed

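RNA of 12 samples was read on the Dx Stem Cell Panel of the nCounter platform. The authors deposited raw counts per probe, read with nSolver 3.0, without background correction or scaling. The members and gene lists were chosen with earlier results of these data known. Gene names came from the panel sheet for 193 identifiers, and the other 6 were looked up in a RefSeq table of GRCh38.p14. Samples were grouped and paired by their labels, which give both samples of a pair the same letter and transfection efficiency. After subtraction of group means, paired samples correlated at 0.282 to 0.892 (6 pairs). No replicates differed by as little as sampling noise. The study's methods describe its replicates as independent experiments, and the labels do not say more.

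The main test was the quasi-likelihood test of edgeR 4.0.16 in R 4.3.3, with the gene total as library size, on the 136 genes whose mean count reached 20, with Benjamini-Hochberg adjustment and 0.05 as the threshold. The effect of miR-25 was fitted on all samples with the pair as block, and time in each arm alone. On simulated counts of these 136 genes it called 83.3% of genes changed by 1.5-fold for miR-25 at 48 h and 85% for time in the control samples. Those counts had a small fixed spread and no differences between pairs or replicates. In the 48 h control samples the SD of scaled counts was 22.4% of the mean for CDH2, 29.3% for CD44 and 34.2% for PLAU. The simulated rates therefore do not give the share of real changes that would be called here. Count ratios were tested by exact two-sided permutation. Alternatives were DESeq2 1.42.0, limma 3.58.1 on log2(scaled count + 1), TMM, the positive control probes or 5 reference genes (TUBB, HPRT1, GUSB, GAPDH and CLTC) as scale, background subtraction, other filters, no block, and each sample or pair left out. Named genes are the 4 members, genes of 3 lists, and the 3 genes most like each member. A further list is not reported here. The pull-down experiment was not analysed here.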

Additional observations from a re-analysis of the deposited data

How the results depend on the processing

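For CD44, CDH2 and PLAU, 282 alternative values over the 6 comparisons held 242 with the same sign and the same side of the threshold, 8 that lost the call, 13 that gained one and 19 that turned sign. Changes are on the log2 scale, and the causes were not tested. With the positive control probes as scale, CD44 was at 0.090 (24 h), 0.16 (48 h), 0.069 (difference) and 0.12 (both time points) with miR-25, CDH2 at 0.27, 0.17 and 0.18 in the last 3, and PLAU at 0.047 over both. On that scale PLAU was at -0.14 in the control and -0.37 in the miR-25 samples for 48 h against 24 h. Calls on that scale numbered 61 for miR-25 at 48 h (all higher), 57 over both, and 27 and 49 for time in the control and miR-25 samples. At 24 h CD44 was at 0.011 with reference genes, and CDH2 at -0.030 with TMM and -0.037 with DESeq2.

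Calls for miR-25 at 48 h numbered 0 with reference genes or with limma after background subtraction, 3 with no filter and 3 with the 48 h samples alone; at 24 h there were 3 with that time point alone. The difference had 1 call with TMM, DESeq2 or no filter. For time, DESeq2 called 22 genes in the control and 33 in the miR-25 samples, where TMM called 17 and no filter 6. Without the replicate block 0 genes were called for miR-25 at 48 h, and 1 fit of all samples without the block called 17 for time in the miR-25 samples. In the cadherin balance at 24 h, CDH1 at the background level gave -0.13.

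With 1 pair left out, calls ranged from 0 to 3 at 24 h, 0 to 2 at 48 h and 0 to 4 over both. CD44 ranged from -0.027 to 0.013 at 24 h, and CDH2 from -0.023 to 0.029 at 24 h, -0.098 to 0.026 at 48 h, -0.100 to 0.025 for the difference and -0.034 to 0.0085 over both. With 1 sample left out, time called 1 to 54 genes in the control and 0 to 62 in the miR-25 samples, the highest of each without replicate 1 at 48 h. In the miR-25 samples the cadherin balance then ranged from -0.72 to 0.32 and CD44 to CDH2 from -0.022 to 0.087. CDH1 was above background in 1 of 12 samples, so its own changes could not be measured.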
